A study of Xenopus tropicalis with 26 samples.

Results

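Between stages 7 and 8 a frog embryo starts to transcribe its own genome. Over that step relative levels of polyA RNA hardly moved in Xenopus tropicalis embryos given both an E2f1 morpholino (E2f1 MO) and Cdkn1a mRNA. The step was read from 4 of 26 RNA-seq libraries, 2 at stage 7 and 2 at stage 8, chosen by their labels alone. A morpholino is an antisense oligonucleotide that binds a chosen transcript and blocks its translation or splicing. All libraries were made from polyA RNA of embryos, and the genotype label of these 4 libraries spells the first treatment E21f MO while their treatment label gives E2F1 MO. The same step was available, with 2 libraries a stage, in wildtype embryos without treatment, in E2f1 MO embryos, in Cdkn1a mRNA embryos, in E2f1 MO + deltaDBD mRNA embryos, whose mRNA is labelled a deltaDBD mutant of E2f1, and in E2f1 MO + E2f1 mRNA embryos. Wildtype alone was also taken at stage 6.

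The labels give no dose, no morpholino sequence, no number of embryos a library and no group injected with a control reagent. A difference from wildtype therefore holds the injection as well as the reagents. The embryos with both treatments were not sampled before stage 7 among the libraries used here. Nothing says that replicates came from separate clutches. The p-values therefore speak only of how far these libraries spread, and that spread may be technical.

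The early frog embryo runs on RNA and protein loaded into the egg, and divides quickly with little transcription. At the midblastula transition the cycles slow, zygotic genes are transcribed in bulk and many maternal transcripts are cleared. E2f1 is a transcription factor of the cell cycle that binds promoters of S-phase genes, and Cdkn1a (p21) inhibits cyclin-dependent kinases and so acts upstream of the E2F and pocket protein pathway. In whole embryos fewer cells of a type and less RNA per cell cannot be told apart. In polyA RNA a change in tail length and a change in RNA amount cannot be told apart either. Rises and falls below are of polyA RNA.

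The 4 libraries held 14071614 to 18968961 counted fragments, within the range of 14071614 to 19032710 over all 26. Levels are in CPM, counts relative to library sizes scaled by trimmed mean of M-values, and differences are log2 fold changes, stage 8 minus stage 7, with their standard errors. Genes were called at a Benjamini-Hochberg adjusted p under 0.05, by quasi-likelihood tests in edgeR from one fit of all 26 libraries and 12883 genes. The stage 8 E2f1 MO group of that fit bears on every count here. The replicates of stage 8 E2f1 MO differed from each other far beyond counting noise, with a chi-square of 14.09 per degree of freedom over genes against 1.86 to 2.38 in the other 12 groups. These libraries are in no group of the step itself, but they enter the shared estimate of spread. The chi-square cannot tell which replicate is the unusual one. Summed over 32 deadenylation and mRNA decay genes, replicate 2 held 5502 CPM, the lowest of all 26 libraries, and replicate 1 held 6255 CPM. Over 72 nuclear oxidative phosphorylation genes replicate 2 held 3404 CPM, the highest of all 26, and replicate 1 held 2911 CPM. Over 25 cyclins, Cdks and their inhibitors replicate 2, at 9711 CPM, lay within the range of the other libraries. The step was not refitted without replicate 1 alone.

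The injected transcript was present and steady. Cdkn1a RNA stood at 235.5 and 242.2 CPM in the stage 7 libraries and at 239.4 and 238.1 CPM in those of stage 8, and in wildtype it lay between 3.399 and 5.48 CPM. The log2 step of cdkn1a was -0.00 ± 0.056 (adjusted p = 1). Endogenous e2f1 gave 400.6 and 407.8 CPM, then 387.0 and 387.9 CPM at the later stage, a log2 step of -0.06 ± 0.038 (adjusted p = 0.895). A morpholino need not lower the RNA it binds, so e2f1 RNA does not check that label.

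Only 18 of 12883 genes were called between the stages, which is 0.14%, with 6 higher (0.0466%) and 12 lower (0.0931%) at stage 8. No more than 1 rise (0.00776%) and 2 falls (0.0155%) reached 2-fold, and 752 genes had an unadjusted p under 0.05. The median log2 step over all genes was -0.00. Levels are relative to library size, so this median does not bear on total RNA. In wildtype, with 4729 calls, it was 0.02. The libraries of both stages did not overlap for 2485 genes that were higher (19.3%) and 2643 that were lower (20.5%). With 2 libraries a stage many genes separate in this way by chance, so these are not counts of shifted genes. The 95% confidence interval of the step lay within 2-fold in either direction for 11150 genes (86.5%), and for 7978 of the 7979 genes with a mean of 16 CPM or more over all libraries.

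Counts in the other steps, called in the same fit and on other libraries, were 4729 genes in wildtype, 476 with E2f1 MO, 310 with Cdkn1a mRNA, 49 with E2f1 MO + deltaDBD mRNA and 5745 with E2f1 MO + E2f1 mRNA. With stage 8 E2f1 MO replicate 2 left out of the fit the count with both treatments was 91, of which 26 rose and 65 fell, and all 18 remained. A fit on the 4 libraries alone called 70. The count was 3 without stage 7 replicate 1, 4 without stage 7 replicate 2, 4 without stage 8 replicate 1 and 10 without stage 8 replicate 2 of the embryos with both treatments. The calls of stil and fbxo43 held under all 14 alternatives, that of trib2 was lost only without stage 7 replicate 1 (adjusted p = 0.0642), and each of the rest was lost without at least 2 of these libraries.

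On the first principal component of the 26 libraries, which carried 55.3% of the variance, stage 7 embryos with both treatments scored 20.01 and 19.17 and stage 8 embryos 26.4 and 26.4. Wildtype went from -25.9 and -25.2 at stage 7 to 30.4 and 32.2 at stage 8. The stage 7 libraries with both treatments thus lay closer to stage 8 wildtype than to stage 7 wildtype on this axis, with a small further shift in the same direction. That place was not particular to them. At stage 7, E2f1 MO embryos scored 15.93 and 17.24, and E2f1 MO + deltaDBD mRNA embryos 17.04 and 17.61. Cdkn1a mRNA embryos scored -21.41 and -22.06, and E2f1 MO + E2f1 mRNA embryos -41.12 and -42.77.

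**Figure D1:**
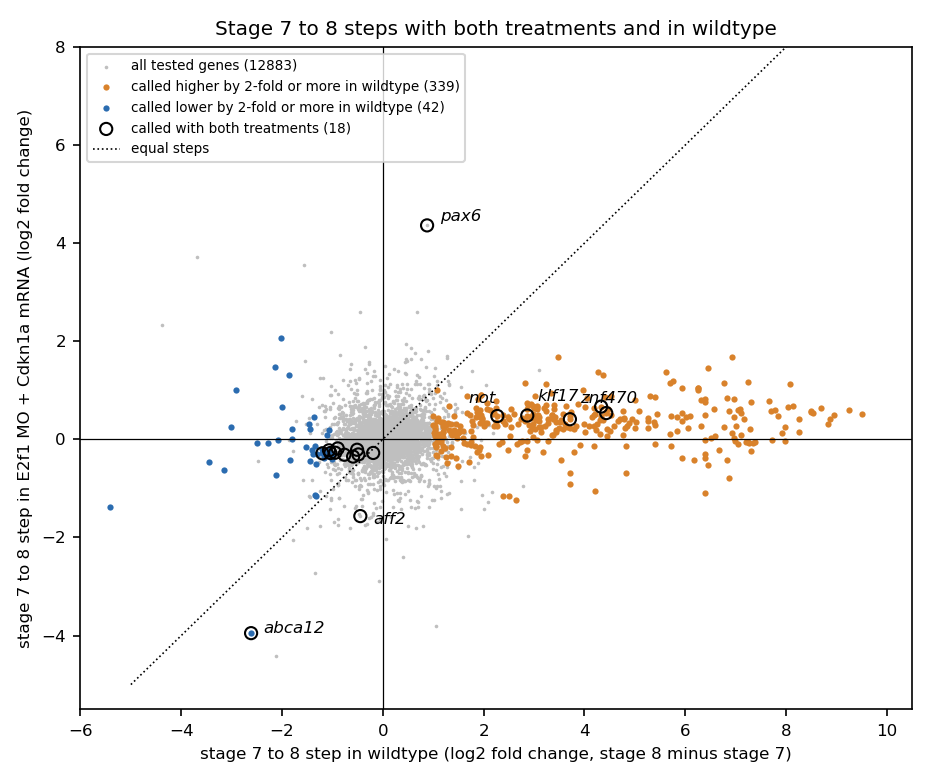
Fitted stage 7 to 8 step in wildtype (x axis) against that in E2f1 MO + Cdkn1a mRNA embryos (y axis), both as log2 fold change, for 12883 genes; orange and blue mark the 339 and 42 genes called higher or lower by 2-fold or more in wildtype, circles the 18 genes called with both treatments, and the dotted line equal steps. The orange points run far along the x axis while their median on the y axis is 0.33.

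The 2 calls that held under every alternative were falls. The transcript of stil, a centriole duplication factor (chromosome 4, 93963488 to 93985033 of the X. tropicalis v10 build used by the files, 17 exons), stood at 263.4 and 264.5 CPM before the step and at 219.0 and 216.2 CPM after it. The groups were well apart, with a log2 step of -0.28 ± 0.037 (adjusted p = 0.000141). For fbxo43 (Emi2), the inhibitor of the anaphase-promoting complex that holds the egg in meiosis (chromosome 6, 128118047 to 128132052), the libraries gave 189.2 and 191.3 CPM and then 156.5 and 155.7 CPM, a log2 step of -0.29 ± 0.040 (adjusted p = 0.000281).

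The DNA topoisomerase gene top2a fell from 287.5 and 290.8 CPM to 243.8 and 251.2 CPM (log2 -0.22 ± 0.046, adjusted p = 0.0205). Dnmt1, the maintenance DNA methyltransferase, fell from 1084 and 1079 CPM to 929.7 and 972.4 CPM (log2 -0.19 ± 0.034, adjusted p = 0.00521). In each of these 4 genes both stage 8 libraries lay below both stage 7 libraries, and the wildtype step was larger in the same direction. Wildtype steps were -1.04 for stil, -1.20 for fbxo43, -1.07 for top2a and -0.89 for dnmt1, and the difference of the steps was called for each, from 0.71 for dnmt1 (adjusted p = 1.8e-13) to 0.91 for fbxo43 (adjusted p = 4.48e-14).

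Both eif2ak3 and atf6b fell. Eif2ak3 (PERK), a kinase that phosphorylates the translation factor eIF2 under endoplasmic reticulum stress, went from 274.7 and 287.3 CPM to 226.3 and 238.6 CPM (log2 -0.27 ± 0.043, adjusted p = 0.00135). Atf6b, a membrane-bound transcription factor of the same response, went from 130.2 and 129.2 CPM to 98.8 and 109.4 CPM (log2 -0.31 ± 0.054, adjusted p = 0.00432). Their wildtype steps were -0.95 and -0.76. Neither gene was among those listed for stress, a list of which no tested member was called out of 33.

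The remaining falls of fair abundance were trib2, a pseudokinase gene, pcsk6, a proprotein convertase that activates TGF-beta family ligands, raver1, an RNA-binding protein gene, and LOC100486773. Trib2 went from 157.0 and 149.8 CPM to 123.7 and 124.1 CPM (log2 -0.31 ± 0.045, adjusted p = 0.000356). Pcsk6 went from 94.0 and 87.1 CPM to 73.1 and 76.2 CPM, raver1 from 438.7 and 444.3 to 365.2 and 396.5 CPM, and LOC100486773 from 58.25 and 57.6 to 45.2 and 45.6 CPM. For pcsk6 the step of -0.28 ± 0.054 (adjusted p = 0.0118) was not called different from the wildtype step of -0.19 (difference -0.09, adjusted p = 0.498).

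Both falls of 2-fold or more were of scarce transcripts. Aff2, a gene of the super elongation complex family, was counted 71 and 62 times at stage 7 and 10 and 31 times at stage 8, or 3.82 and 3.27 against 0.689 and 1.59 CPM (log2 -1.57 ± 0.34, adjusted p = 0.0394). The aff2 call was lost without stage 7 replicate 1 or 2 or stage 8 replicate 1. Abca12, a lipid transporter gene, was counted 14 and 24 times and then 0 and 2 times, and the stage 8 level was 0.0581 of that at stage 7 with a counting interval of 0.00679 to 0.225. The abca12 call was lost in DESeq2 (adjusted p = 0.178) and with any 1 of the 4 libraries left out. Over the 13 groups aff2 ranged from 0.638 to 6.31 CPM in no fixed order of stage, and in E2f1 MO + deltaDBD mRNA embryos it was the stage 8 level that was higher, at 2.58 ± 0.45 against 0.776 ± 0.41 CPM (SD, n = 2).

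Of the 6 rises, 5 were of genes that wildtype turned on by 2-fold or more. Not, a homeobox gene of the organizer and notochord (chromosome 1, 16941841 to 16943864, 3 exons), gave 30.4 and 30.6 CPM, then 40.6 and 44.1 CPM at the later stage, a log2 step of 0.48 ± 0.083 (adjusted p = 0.00432). Klf17, a Krüppel-like factor gene expressed in the early ectoderm (chromosome 4, 91722837 to 91725856), went from 47.1 and 44.4 to 68.2 and 60.4 CPM (log2 0.49 ± 0.087, adjusted p = 0.00516). The zinc finger gene znf470 (chromosome 6, 2904657 to 2908318) went from 35.4 and 34.6 to 47.0 and 46.1 CPM (log2 0.41 ± 0.082, adjusted p = 0.0169). The groups did not overlap for any of the 3.

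What set these genes apart from wildtype was the level at stage 7. In wildtype, not had 10.01 and 11.1 CPM at stage 7, then 50.3 and 51.5 CPM. Stage 7 embryos with both treatments already held 59.9% of the stage 8 wildtype level of not, 56.5% of that of klf17 and 47.1% of that of znf470. At stage 8 they held 83.2, 79.3 and 62.6%, so all 3 genes ended the step below the wildtype mean. The differences of the steps from wildtype were -1.80, -2.38 and -3.30 on the log2 scale, with adjusted p of 7.15e-13, 1.25e-14 and 2.49e-18.

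The unnamed genes LOC100493456 and LOC101732555 followed the same course, from 13.65 and 13.67 to 23.3 and 20.25 CPM and from 26.1 and 27.7 to 38.1 and 39.9 CPM, with log2 steps of 0.67 ± 0.12 (adjusted p = 0.00516) and 0.54 ± 0.11 (adjusted p = 0.0163). In wildtype both were under 2.5 CPM at stage 7. The sixth gene was pax6, an eye and brain transcription factor gene (chromosome 4, 19055212 to 19079444, 13 exons), with 1 and 1 counts at stage 7 and 19 and 23 counts at stage 8. That is 0.0537 and 0.0528 CPM against 1.31 and 1.18 CPM, a ratio of 23.2 with a counting interval of 6.03 to 198. In wildtype it had 3 counts at stage 7 and 6 at stage 8, and its highest level in the other groups was 0.541 CPM, in stage 6 wildtype. It may thus have passed the low count filter only through the stage 8 libraries with both treatments. Its call is then no independent support for a rise. The pax6 call was lost in DESeq2 (adjusted p = 0.235) and with any 1 of the 4 libraries left out, and its step was not called different from that of wildtype (adjusted p = 0.163).

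**Figure D2:**
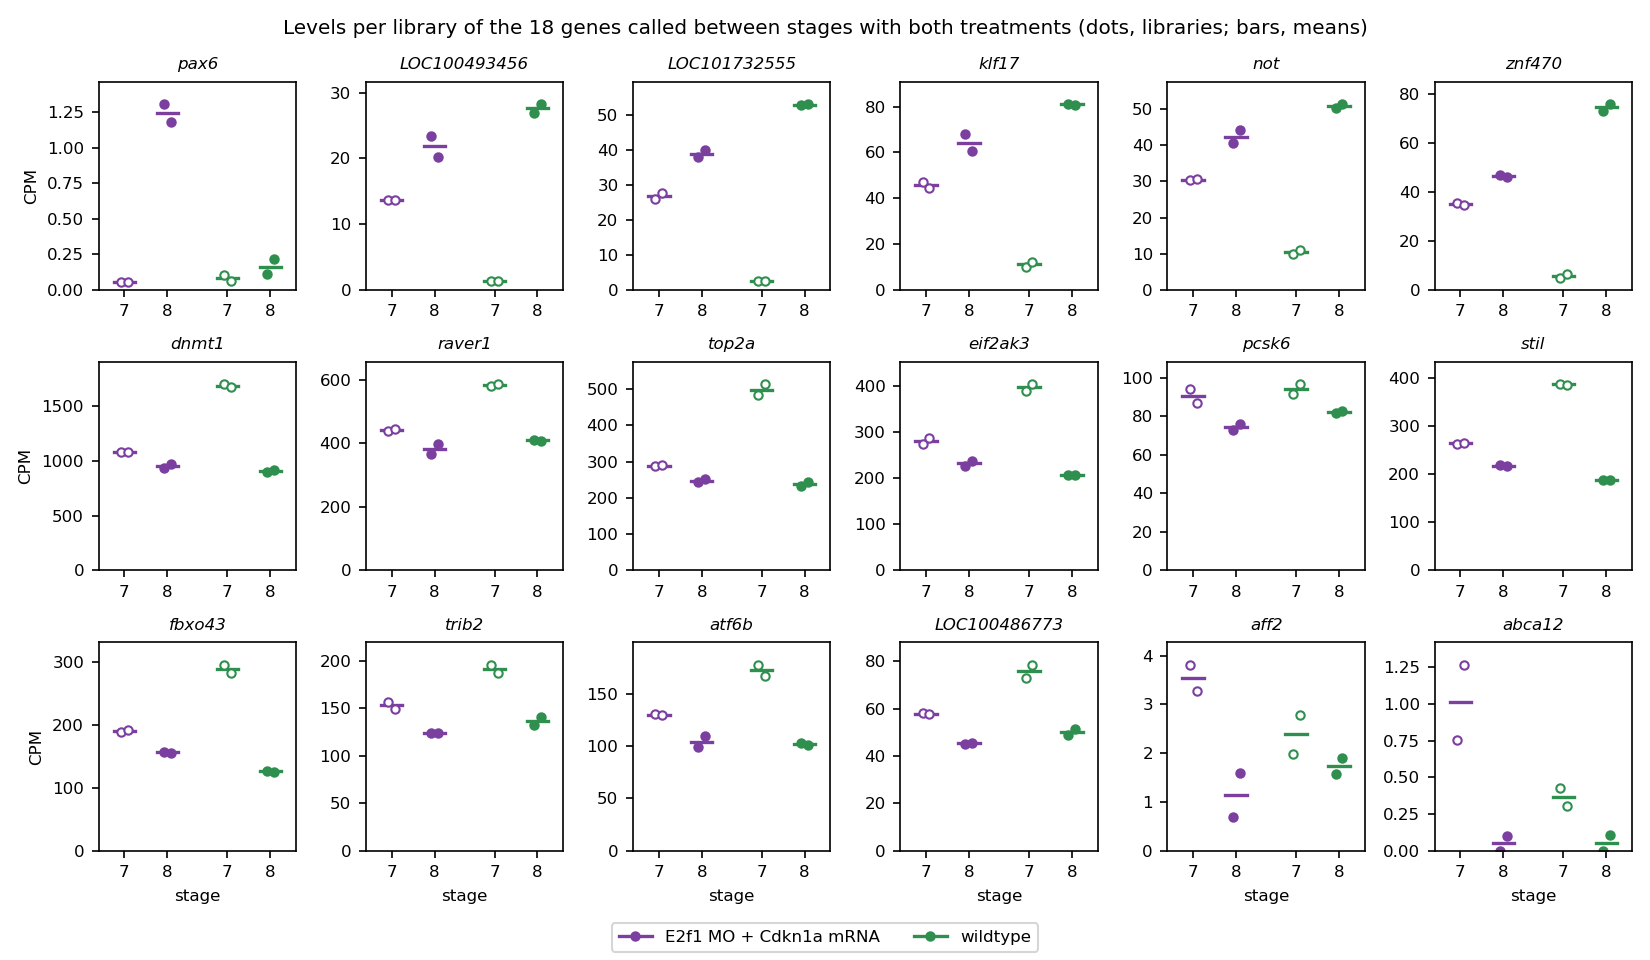
CPM per library (dots) and group mean (bars) of the 18 genes called between stages 7 and 8 with both treatments, with wildtype beside them; open dots are stage 7, filled dots stage 8, and each panel has its own axis from 0. By fold, the purple pairs shift less than the green pairs in 14 of the panels, as for not, which goes from 30.4 and 30.6 to 40.6 and 44.1 CPM in purple and in green from 10.01 and 11.1 to 50.3 and 51.5 CPM.

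Of the 18 called genes, 16 were also called in wildtype, all in the same direction. That is 88.9% of the 18 and 0.338% of the 4729 wildtype calls. Those 4729, of which 2461 were higher and 2268 lower, were called among 12883 tested genes. All 18 fitted steps had the sign of the wildtype step, and for 14 the wildtype step was the larger. Of the 91 genes called without stage 8 E2f1 MO replicate 2, 90 were tested in the fit of all libraries, and 74 of these were called in wildtype in the same direction, 1 in the other and 15 not at all. Among the 91 the falls had a median log2 step of -0.17 and the rises one of 0.43.

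Genes that switch on in wildtype showed where the step was missing. The 339 genes called higher by 2-fold or more in wildtype, chosen on wildtype libraries and not on those with both treatments, had a median log2 step of 3.37 in wildtype, or 3.05 with the 66 genes that had no count in one wildtype stage held at their bound. With both treatments their median step was 0.33, with 5 called higher and 0 lower, 64 against 0 at an unadjusted p under 0.05. Over all 12883 tested genes 6 were called higher and 12 lower, 343 against 409 at an unadjusted p under 0.05. A positive step was seen for 78.2% of the 339, against 49% of all tested genes. The groups did not overlap upward for 170 of the 339 and downward for 21. Over all tested genes the shares were 19.3% upward and 20.5% downward. The steps of 257 were called below wildtype, a direction that the choice by the wildtype step fixes in part.

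Summed over the 339 genes, the level with both treatments was 1370 and 1346 CPM, then 1698 and 1693 CPM at stage 8. In wildtype it was 342.6 and 363.9 CPM, then 2291 and 2298 CPM, after 187.7 and 199.1 CPM at stage 6. So stage 7 held 80.1% of the stage 8 level with both treatments and 15.4% in wildtype, and the same share was 61.1% with E2f1 MO, 58.2% with Cdkn1a mRNA, 83.2% with E2f1 MO + deltaDBD mRNA and 35.1% with E2f1 MO + E2f1 mRNA. With Cdkn1a mRNA alone the sum rose from 352.7 and 351.7 to 603.0 and 607.9 CPM, far under the levels with both treatments at either stage. In 2 other groups the stage 7 sum lay near that with both treatments, at 1380 and 1366 CPM with E2f1 MO and 1307 and 1355 CPM with E2f1 MO + deltaDBD mRNA.

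**Figure D3:**
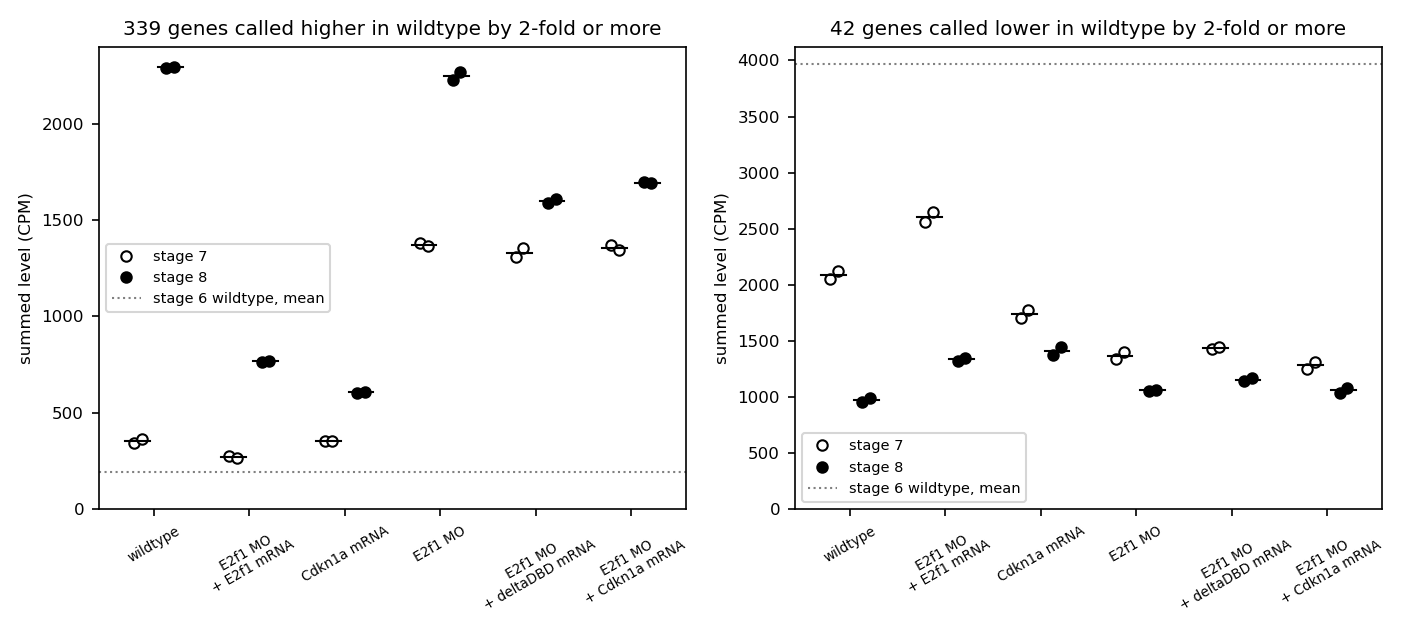
Summed CPM per library (dots) and group mean (bars) at stages 7 (open) and 8 (filled) in the 6 treatments for the 339 genes called higher (left) and the 42 called lower (right) by 2-fold or more in wildtype, which fixes the wildtype direction; the dotted line is the stage 6 wildtype mean. With both treatments the left sum went from 1370 and 1346 to 1698 and 1693 CPM, against 342.6 and 363.9 to 2291 and 2298 CPM in wildtype.

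The test of the difference itself called 2073 genes whose step with both treatments differed from that in wildtype (16.1%), 991 with a higher step (7.69%) and 1082 with a lower step (8.4%). Of these, 22 and 259 differed by 2-fold or more. With library totals as the only scaling the split was 601 against 1455, and leaving out stage 8 E2f1 MO replicate 2 gave 3194 calls. Of the wildtype libraries, leaving out replicate 1 of stage 7 gave 1250 calls and leaving out replicate 2 of stage 8 gave 1197. Among the named genes, the lower steps of 2-fold or more were led by tfap2a, tat, chrd.1, fst, rhov and znf750. The summed counts of tfap2a over both wildtype libraries were 0 at stage 7 and 161 at stage 8, at least 51.2-fold higher, against 2.203 and 3.115 CPM, then 3.03 and 4.87 CPM, with both treatments. The bounds in wildtype were 39.4-fold for tat, a tyrosine aminotransferase gene, 30.5-fold for fst (follistatin, which binds activin), and 25.7-fold each for chrd.1 (chordin, which binds BMP) and znf750, an epidermal differentiation factor gene. With both treatments none of the 5 was called, and levels at stage 7 lay between 1.075 and 3.115 CPM.

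Among named genes whose step was called above that in wildtype, the largest differences were 1.41 for iffo1, 1.27 for dmbx1 and 1.18 for plcb4. Next came 1.1 for plbd2, 1.09 for nxpe3l.6 and 1.02 for chn2. Wildtype steps of these 6 ran from -1.39 for plbd2 to -0.98 for iffo1. The calls of iffo1 and chn2 held under 13 and 12 of 16 alternatives, and the rest under all 16. Dmbx1, a homeobox gene of the anterior brain, stood at 3.92 and 4.96 CPM and then at 5.23 and 4.97 CPM with both treatments, and went from 7.97 and 8.01 to 4.61 and 2.99 CPM in wildtype. The steps of these 6 with both treatments lay between -0.29 and 0.43, and none was called.

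Nodal ligand and siamois genes, which open mesendoderm and organizer formation, came first among the lists ordered by role. Counts of steps called above or below wildtype in a list stand against 7.69 and 8.4% of all genes. Calls between the stages stand against 0.14% of all genes, so a list without a call is not thereby set apart. None of 8 tested genes was called between the stages with both treatments, with a median log2 step of 0.31 against 2.14 in wildtype, and 6 of the 8 steps were called below wildtype. Nodal3.1, a Nodal-related ligand gene, gave 9.35 and 8.61 CPM, then 12.5 and 12.15 CPM, against 2.78 and 2.97 and then 15.9 and 16.3 CPM in wildtype. Its groups did not overlap, yet the step of 0.46 ± 0.14 missed the threshold (adjusted p = 0.39). Sia2, a homeobox gene under maternal Wnt control, overlapped between stages at 6.93 and 6.97 and then 6.61 and 7.64 CPM. The sia1, sia2 and nodal3.1 genes have close copies, and fragments that mapped to several places were not counted, so their levels are uncertain.

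Organizer genes had the largest list median with both treatments, 0.46, against 3.94 in wildtype with genes at 0 held at their bound. One of 14 was called, not, while 11 steps were called below wildtype and 1 above. The admp gene, of a BMP-like ligand of the organizer, stood at 9.19 and 9.56 CPM and then at 11.7 and 10.51 CPM, against 0.428 and 0.486 and then 17.6 and 17.97 CPM in wildtype. The difference of its steps was -5.03 (adjusted p = 1.84e-15), though its own step of 0.24 ± 0.13 was not called (adjusted p = 0.875). For lefty, a Nodal antagonist gene, the libraries gave 4.19 and 5.385 and then 6.47 and 7.02 CPM (adjusted p = 0.728).

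Ventral and BMP genes numbered 19, of which none was called, 9 steps were below wildtype and 1 above, and the median was 0.09 against 2.42 in wildtype. Ventx2.2, a homeobox repressor downstream of BMP, came closest at 16.7 and 17.8 and then 23.5 and 24.5 CPM, a log2 step of 0.48 ± 0.11 (adjusted p = 0.0505). It was called without stage 8 E2f1 MO replicate 2 (adjusted p = 0.00554). In wildtype ventx2.2 went from 1.39 and 1.94 to 35.6 and 31.4 CPM. The ligand gene bmp4 stood at 5.97 and 7.08 and then at 9.09 and 7.33 CPM, against 0.856 and 0.850 and then 11.8 and 9.18 CPM in wildtype. Of id3, a BMP target, the libraries gave 24.4 and 24.2 and then 29.5 and 28.9 CPM (log2 0.26 ± 0.10, adjusted p = 0.664).

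Among 15 mesendoderm transcription factors none was called, 10 steps were below wildtype and 1 above, and the median was 0.19 against 1.90. The T-box gene eomes stood at 4.94 and 5.702 and then at 7.37 and 6.92 CPM, against 0.321 and 0.364 and then 10.8 and 8.52 CPM in wildtype. Mix1, a homeobox gene under Nodal control, gave 4.14 and 4.805 and then 5.92 and 5.79 CPM (adjusted p = 0.871). Sox17b.1, of the endoderm, went from 4.14 and 3.22 to 4.34 and 3.998 CPM, values that overlapped.

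Ectoderm genes included 1 call, klf17, out of 17, with a median of 0.41 against 3.84 in wildtype and 11 steps called below wildtype. Foxi4.2, a forkhead gene of the early ectoderm, stood at 7.90 and 8.34 and then at 10.2 and 9.38 CPM (adjusted p = 0.876), against 0.91 and 0.91 and then 13.9 and 12.3 CPM in wildtype. Of 14 neural plate genes the scarce pax6 was the 1 called, with a median of 0.23 against 2.16, and 8 steps were below wildtype and 2 above. The neural and pluripotency factor gene sox2 gave 11.02 and 8.92 and then 14.8 and 13.4 CPM, a log2 step of 0.49 ± 0.14 (adjusted p = 0.237), against 1.124 and 0.85 and then 17.9 and 18.6 CPM in wildtype. Among the early zygotic genes given here, only not and klf17 passed the threshold between the stages. Pax6 passed it too, but its wildtype step was not called (adjusted p = 0.582). The limits of its call are given above. The level at stage 7 was above that of stage 7 wildtype libraries in each gene given here but pax6. Beyond the called genes, those given here were chosen by their step against wildtype, which fixes this direction in part.

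FGF and Wnt genes, which signal for mesoderm and for the ventral side, showed no call among 29, a median of -0.00 against 0.30 and 12 steps below wildtype against 2 above. Fgf8 stood at 2.69 and 2.75 and then at 3.925 and 1.999 CPM, and wnt8a at 2.096 and 1.90 and then at 2.34 and 2.36 CPM. Their summed counts in wildtype rose from 1 to 181 and from 2 to 156, with counting intervals of the ratio of 30.6 to 6850 and 20.2 to 620. The FGF-induced phosphatase gene dusp6 gave 12.04 and 11.9 and then 15.1 and 13.9 CPM, against 2.14 and 1.82 and then 19.5 and 17.7 CPM in wildtype.

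Among 11 pluripotency factors none was called, and pou5f3.3, a maternal Oct4-class gene, stood at 778.8 and 784.0 and then at 780.2 and 781.2 CPM, with a 95% interval of the log2 step of -0.07 to 0.07. The zygotic paralogue pou5f3.1 gave 3.17 and 2.11 and then 2.68 and 2.15 CPM, and its summed count in wildtype rose from 3 to 179. The difference of the steps was -5.85 (adjusted p = 1.83e-08).

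**Figure D4:**
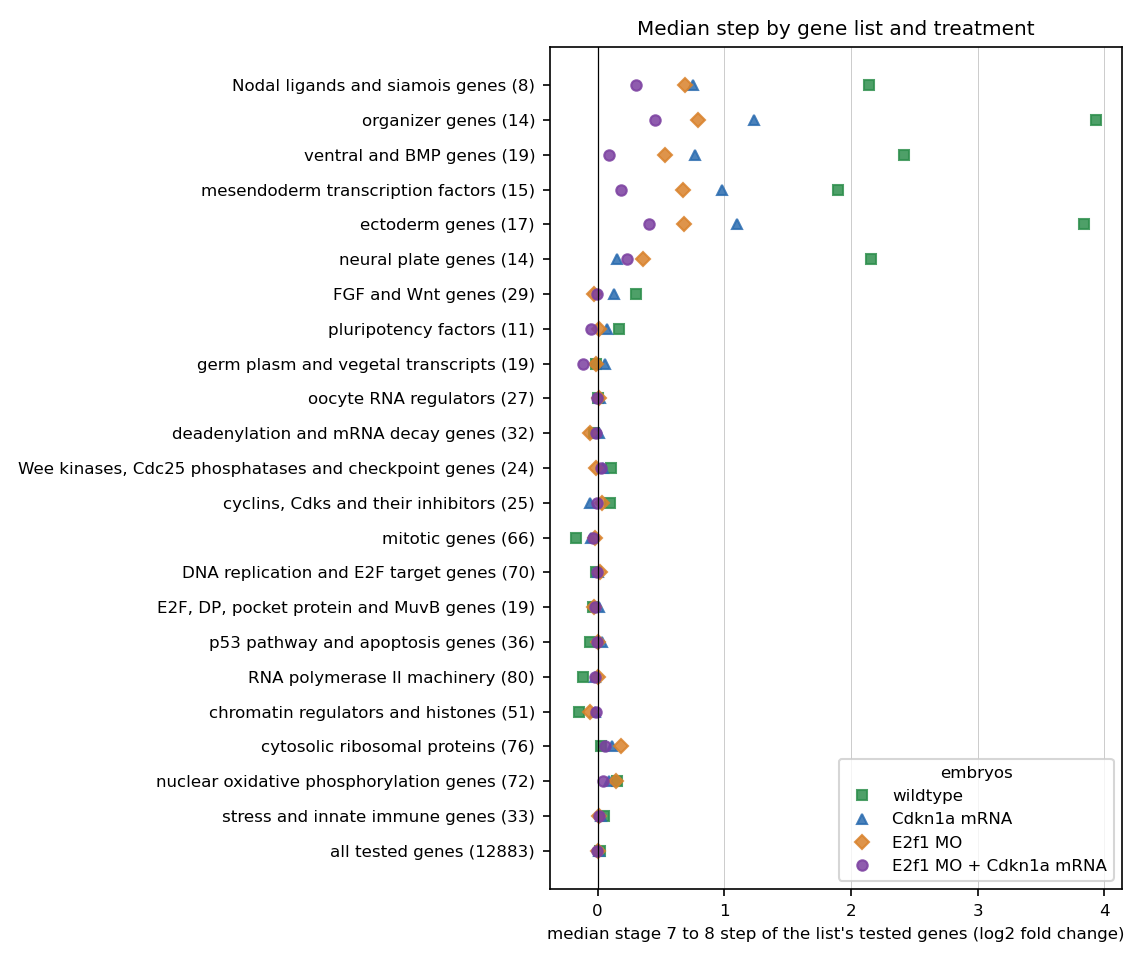
Median fitted stage 7 to 8 step (log2 fold change) of each gene list with 6 or more tested genes (number in brackets) in wildtype, Cdkn1a mRNA, E2f1 MO and E2f1 MO + Cdkn1a mRNA embryos, with genes at 0 in one stage held at their bound. The largest median with both treatments is 0.46, for organizer genes, where wildtype has 3.94, and all tested genes lie at -0.00.

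The other genes chosen on wildtype were those that fell there. The 42 genes called lower by 2-fold or more in wildtype had a median log2 step of -0.23 with both treatments against -1.42. Of the 42, 4 were called lower and 0 higher, where 12 and 6 of all 12883 tested genes were. The summed level of the 42 was 1253 and 1313 CPM at stage 7 and 1037 and 1079 CPM at stage 8. In wildtype it was 2054 and 2121 and then 953.4 and 986.4 CPM. At stage 7 the sum with both treatments was thus lower than in wildtype, and at stage 8 a little higher. Stil, fbxo43 and top2a, given above, are among the 42 and make up much of the sum with both treatments. In stage 7 replicate 1 they held 263.4, 189.2 and 287.5 of 1253 CPM. The steps of 21 of the 42 were called above wildtype and of 0 below, a direction that the choice by the wildtype fall again fixes in part.

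Mitotic genes had 2 calls of 66, fbxo43 and top2a, both falls, and 30 of the 66 had stage 8 libraries that lay wholly below those of stage 7, against 20.5% of all genes. The median was -0.04 against -0.17 in wildtype, and 21 steps were called above wildtype and 5 below. Plk1, a mitotic kinase gene, stood at 565.2 and 559.4 and then at 533.8 and 528.7 CPM (log2 -0.08 ± 0.038, adjusted p = 0.833), against a wildtype step of -0.48. Without stage 8 E2f1 MO replicate 2, 6 mitotic genes were called, all lower, with ncapd2, incenp, anln and cdca3 joining at log2 steps of -0.11, -0.10, -0.13 and -0.27.

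Genes of DNA replication and E2F targets had 1 call of 70, dnmt1, and 13 steps above (18.6%) and 7 below wildtype (10%), the latter near the share of all genes. Cdc6, which loads the replicative helicase, stood at 931.4 and 931.8 and then at 914.0 and 913.4 CPM (adjusted p = 0.952), and mybl2, a transcription factor gene of the cell cycle, at 374.1 and 378.8 and then at 392.7 and 382.9 CPM (adjusted p = 0.941). Their 95% intervals, -0.09 to 0.03 for cdc6 and -0.03 to 0.12 for mybl2, bound the step within a small change. The wildtype steps were -0.27 and 0.41, and both differences were called (adjusted p = 7.88e-05 and 9.06e-06). Dbf4b, a subunit of the kinase that fires origins, missed the threshold at a log2 step of -0.19 ± 0.045 (adjusted p = 0.0825).

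Cyclins, Cdks and their inhibitors gave no call among 25, with 7 steps above and 2 below wildtype. Ccnb1, the main mitotic cyclin gene, stood at 1741 and 1727 and then at 1709 and 1667 CPM, and ccna1, a maternal cyclin A gene, at 1871 and 1866 and then at 1829 and 1801 CPM. The 24 Wee kinase, Cdc25 phosphatase and checkpoint genes held no call either, nor did the 19 E2F, DP, pocket protein and MuvB genes, of which 0 steps were above and 2 below wildtype, near the share of all genes. Cdc25a, which activates Cdks, gave 895.1 and 930.4 and then 853.8 and 856.3 CPM (adjusted p = 0.618), and clspn, a replication checkpoint mediator gene, 612.5 and 622.5 and then 548.5 and 557.6 CPM (adjusted p = 0.0743). Both were called without stage 8 E2f1 MO replicate 2, at adjusted p of 0.0422 and 1.58e-05.

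Germ plasm and vegetal transcripts, which set aside the germ line, had no call among 19 but a median of -0.11, below the -0.01 of wildtype, and 12 of the 19 did not overlap downward, against 20.5% of all genes. Grip2, a germ plasm gene, stood at 84.8 and 82.4 and then at 67.1 and 72.3 CPM (log2 -0.26 ± 0.062, adjusted p = 0.0891), and nanos1, a translational repressor of the germ line, at 38.05 and 39.65 and then at 33.3 and 30.6 CPM (log2 -0.29 ± 0.073, adjusted p = 0.159). Their wildtype steps were -0.87 and -0.68, both larger by the test of the difference, so both genes ran against the list median. Of the 19 steps, 4 were called below wildtype (21.1%) and 3 above (15.8%). Without stage 8 E2f1 MO replicate 2, grip2, nanos1 and dnd1 were among the genes called lower. The velo1 transcript of the Balbiani body gave 475.9 and 475.8 and then 465.8 and 464.7 CPM (adjusted p = 0.952) where the wildtype log2 step was 0.27.

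The other lists held 1 call, where 0.14% of all genes were called. No gene was called among 27 oocyte RNA regulators, 32 deadenylation and mRNA decay genes, 36 p53 pathway and apoptosis genes, 51 chromatin regulators and histones, 76 cytosolic ribosomal proteins and 72 nuclear oxidative phosphorylation genes, and aff2 was the 1 call among 80 genes of the RNA polymerase II machinery. Their medians with both treatments lay between -0.02 and 0.06. Of the ribosomal protein genes 50 of 76 had a positive step, with 29 not overlapping upward and 4 downward, and of the oxidative phosphorylation genes 47 of 72, with 24 not overlapping upward and 6 downward, against 19.3 and 20.5% of all genes. Of the decay genes 12 of 32 did not overlap downward and 4 upward, and of the RNA polymerase II genes 25 of 80 downward and 16 upward. Among the ribosomal genes rplp0 stood at 146.3 and 140.0 and then at 149.1 and 151.7 CPM (log2 0.07 ± 0.059, adjusted p = 0.93). Of the chromatin list 9 steps were called above wildtype and 0 below, such as hdac2, a histone deacetylase gene, at 132.1 and 139.1 and then 140.1 and 135.4 CPM against a wildtype step of -0.39.

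Markers of other cell types showed no call. Of 24 markers of differentiated tissues 10 had no count in any of the 4 libraries, among them the muscle and blood genes actc1, mylpf and hba3, and their summed level was 4.08 to 5.02 CPM at stage 7 and 4.51 to 6.68 CPM at stage 8. Only 2 of 9 testis markers had no count, and the list summed to 73.1 to 83.5 and then 79.9 to 80.6 CPM. Of 11 follicle cell markers 7 had no count, amh and cyp19a1 among them, with sums of 2.17 to 2.26 and then 2.203 to 2.56 CPM. None of the 10 tested members of the 3 lists was called.

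Against E2f1 MO embryos, which lack the Cdkn1a mRNA, the step with both treatments differed in 1 gene (0.00776%), with 872 at an unadjusted p under 0.05. The gene was inpp5j, an inositol polyphosphate 5-phosphatase gene (chromosome 1, 144059250 to 144072899), at 9.62 and 11.1 and then 10.54 and 10.9 CPM with both treatments. With E2f1 MO it went from 2.94 and 2.27 to 0.183 and 0.19 CPM, from 55 and 39 counts to 3 and 3, and the difference of the steps was 3.81 ± 0.43 (adjusted p = 4.42e-06). In wildtype it was level at 8.56 and 6.25 and then 7.48 and 7.66 CPM.

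That count turned on the stage 8 E2f1 MO libraries. Without replicate 1 of that group the comparison called 1806 genes, and without replicate 2, or without stage 7 replicate 1 of the embryos with both treatments, it called 2. The largest of these counts rests on replicate 2 as the only stage 8 E2f1 MO library. Its sums over decay and oxidative phosphorylation genes lay outside those of all other libraries. A count of 1 does not show that the steps were alike. The median step of the 339 wildtype risers was 0.33 with both treatments and 0.70 with E2f1 MO, and their stage 8 sum was 1698 and 1693 against 2230 and 2268 CPM. For sox2 the difference of the steps was -0.62 with a 95% interval of -1.01 to -0.23 (adjusted p = 0.598), and for not it was -0.15 with one of -0.38 to 0.09.

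Against Cdkn1a mRNA embryos, which lack the morpholino, the steps differed in 34 genes (0.264%), 2 above (0.0155%) and 32 below (0.248%), of which 30 by 2-fold or more. Admp went from 0.116 and 0.189 to 1.80 and 1.57 CPM with Cdkn1a mRNA alone, and the difference of the steps was -3.18 ± 0.47 (adjusted p = 0.000252). Differences for gs17, rhov, foxd4l1.1, mix1 and foxi4.2 were -4.26, -4.04, -2.55, -2.53 and -1.99. The calls of foxd4l1.1 (adjusted p = 0.0492) and mix1 (adjusted p = 0.0432) held under 5 and 7 of 16 alternatives and were lost in DESeq2 and with the replicate block, those of gs17, foxi4.2 and rhov held under 15, 13 and 12, and gs17 was lost without stage 7 Cdkn1a mRNA replicate 2 (adjusted p = 0.0836). In each the level with Cdkn1a mRNA alone was under 0.5 CPM at stage 7 and at most 2.24 CPM at stage 8, whereas with both treatments it was 4.14 CPM or more at both stages. So the smaller fold came with the higher level at either stage.

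The ventx2.2 gene went from 1.27 and 0.945 to 5.56 and 5.44 CPM with Cdkn1a mRNA alone (difference -1.82 ± 0.26, adjusted p = 0.000201). On the other side, dgke, a diacylglycerol kinase gene, went from 11.9 and 13.2 to 14.1 and 15.2 CPM with both treatments and from 17.15 and 17.19 to 10.1 and 11.04 CPM with Cdkn1a mRNA alone, a difference of 0.93 ± 0.17 (adjusted p = 0.00416). The second gene above was pax6, with summed counts of 14 at stage 7 and 1 at stage 8 with Cdkn1a mRNA alone. That call thus rests on few counts. Without stage 8 E2f1 MO replicate 2 the comparison called 98 genes, without stage 7 Cdkn1a mRNA replicate 1 it called 11, without replicate 2 of that group 19 and without stage 8 Cdkn1a mRNA replicate 2 it called 22, and admp and dgke held under all 16 alternatives.

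**Figure D5:**
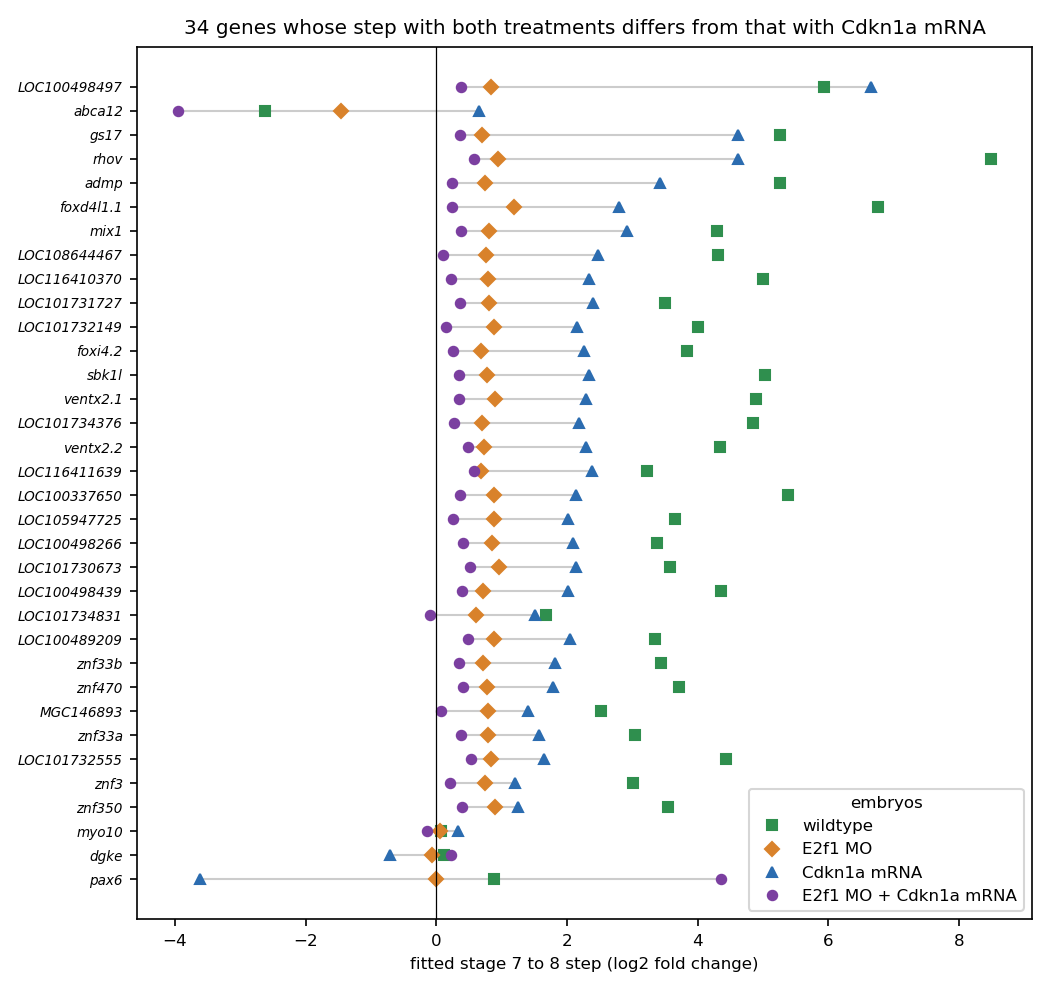
Fitted stage 7 to 8 steps (log2 fold change, x axis) in 4 treatments of the 34 genes whose step with both treatments was called different from that with Cdkn1a mRNA, ordered by that difference, which chose them. The circles of both treatments and the triangles of Cdkn1a mRNA lie apart in each row, as for admp, at 0.24 and 3.42.

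The genes whose steps differed most from wildtype downward had few exons. The steps of 257 of the 339 wildtype risers were called below wildtype, so this set and the risers may share many genes. The structure of the risers was not compared, so whether few exons go with the difference or with the risers was not tested. The 259 genes whose step lay 2-fold or more below wildtype had a median of 3 exons and an exonic length of 2114 bases, with 15.1% of single-exon genes, against 10 exons, 2708 bases and 2.44% over all tested genes. Of them 22% lay on chromosome 6, which holds 8.93% of the tested genes. The 823 genes below wildtype by less than 2-fold went the other way, with a median of 13 exons and 3433 bases, 0.972% of single-exon genes and 6.8% on chromosome 6. Of the 32 genes below Cdkn1a mRNA, 15 lay on chromosome 6 between 2833045 and 79468747, and the zinc finger genes znf470, znf350, znf33a, znf33b and znf3 were among them. For znf350 the libraries with both treatments gave 21.5 and 23.5 and then 28.99 and 29.9 CPM (log2 0.39 ± 0.091, adjusted p = 0.0825). Fragments that mapped to several places were not counted, so the level of any gene with close copies is uncertain. Whether these 15 genes lie in clusters or resemble each other was not tested. The 12 called falls had longer transcripts, with a median of 19 exons and 4903 bases, and the 6 called rises a median of 3 exons and 2170 bases.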

How the data were processed

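The deposited file is a table of counts of fragments per gene for 26 libraries, made by the authors with featureCounts 2.0.1 on an X. tropicalis v10 annotation, per the file headers, with reverse strand, both mates mapped, no chimeric pairs and no fragments mapping to several places. Reads were handled with fastp, STAR 2.7.0e and deepTools, per the submitters' processing notes. The kit was stranded, per the labels. Counts were fitted with edgeR 4.0.16 (R 4.3.3, limma 3.58.1) as 13 group means with filterByExpr (12883 of 28778 genes), TMM factors of 0.872 to 1.06 and robust quasi-likelihood, with 13 residual degrees of freedom and a biological coefficient of variation of 3.93%. DESeq2 1.42.0 was an alternative. Standard errors are the log2 fold change over the root of F. Totals ran from 14071614 to 19032710 fragments. The floor for a group with no count was 3 counts summed over its libraries, and 1 to 3 counts gave an exact binomial interval (95%) of the ratio, both for counting error only. The fit was tested on simulated data with one spread for all genes, no library that stood apart and changes larger than most steps called here. That test does not bear on the calls given here.

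The members, lists and tests were chosen with earlier results of these data known. Named genes were the called genes with the largest change, up to 12 a side (6 in a comparison of steps) with a mean of 2 CPM or more, and up to 4 called genes a list. Added after values were seen were the other called genes, list genes by their step against wildtype, ventx2.2, the znf genes and those called only without stage 8 E2f1 MO replicate 2.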

Additional observations from a re-analysis of the deposited data

Results flagged for a closer look

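Differences between treatments in the same step, by the test of the difference itself, were called for 2073 genes against wildtype, 1 against E2f1 MO and 34 against Cdkn1a mRNA.

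Against wildtype, the fitted log2 differences of the named genes were 1.41 for iffo1, 1.27 for dmbx1, 1.18 for plcb4, 1.1 for plbd2, 1.09 for nxpe3l.6 and 1.02 for chn2. On the other side they were -8.65 for tfap2a, -8.45 for tat, -8.10 for chrd.1, -7.94 for fst, -7.91 for rhov and -7.85 for znf750. The latter 6 had 0 or 1 counts in stage 7 wildtype, so that these fitted values depend on the prior count and are no bounds.

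Against E2f1 MO the difference was 3.81 for inpp5j. Against Cdkn1a mRNA it was 0.93 for dgke, -4.26 for gs17, -4.04 for rhov, -3.18 for admp, -2.55 for foxd4l1.1, -2.53 for mix1 and -1.99 for foxi4.2, and gs17 and rhov had 2 counts or fewer at stage 7 with Cdkn1a mRNA. Groups of 2 libraries allow no search within a group for single samples far from the rest.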

How the results depend on the processing

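Counts of called genes moved, and none of the single-gene values recomputed changed sign where called. The balance of directions moved as well. Against wildtype, 991 higher and 1082 lower steps became 601 and 1455 with library totals as the only scaling, at 2056 calls. For the stage contrast, 18 genes became 39 with no filter on low counts, 70 on the 4 libraries alone, 91 without stage 8 E2f1 MO replicate 2, 96 without either stage 8 E2f1 MO library and 3 to 10 without 1 of its own libraries. Against wildtype, 2073 became 3227 on the libraries compared alone, 3194 without stage 8 E2f1 MO replicate 2, and 1197 to 1734 without 1 library compared. Against E2f1 MO, 1 became 48 with no filter and 1 to 1806 without 1 library. Against Cdkn1a mRNA, 34 became 85 on the libraries compared alone, 98 without stage 8 E2f1 MO replicate 2 and 11 to 27 without 1 library compared. The cause was not tested. Alternatives that leave out stage 8 E2f1 MO libraries for the other 3 comparisons, and the one below with both choices, were chosen after seeing the data. Where a library was left out, the lone one of its group was assumed to vary like the other groups.

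The labels do not say that replicate numbers pair the libraries, and groups of 2 cannot settle it. Over 78 pairs of groups, deviations of same-numbered libraries correlated at -0.070 to 0.058 over all genes, and at -0.304 to 0.289 over genes above 32 CPM, where stages 7 and 8 with both treatments gave 0.153. With the replicate block the 4 counts were 19, 2130, 1 and 33, and on the 4 libraries alone with the block, which leaves 1 residual degree of freedom, the stage contrast gave 233.

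Of the values of single genes and lists, 2081 were kept, 127 calls were lost, most with a library left out, and 68 counts moved. A gene was kept if it stayed on its side of the threshold. A list was kept if its count of calls was equal or close to the main one, and many lists had no call to lose. The median step over all genes was -0.0018 with TMM, 0.0016 with median-of-ratios (RLE) size factors and 0.0133 with library totals. A scarce gene such as pax6 is limited by depth, with 1 and 1 counts at stage 7.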
